A study of Mus musculus with 24 samples.

Results

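Bfsp1 and Stk32a are genes whose transcript levels lay far apart, toward higher values in low oxygen, between mouse oocytes grown in 5% O2 (IV 5% O2) and in 20% O2 (IV 20% O2). On the scale of log2(RPM + 1) their differences ranked 1 and 2 among genes with a name of their own, ranks that neither gene kept on every other scale. They are 2 of the 16572 gene names of the RNA-seq table, and each has 1 row. They were selected on the measured difference in RNA-seq level between these conditions, so it is described here without a test.

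Both groups were class IV oocytes, those of the largest diameter class, labelled as 60 to 70 μm in diameter, although the study's methods give a lower range for 20% O2. They came from ovaries of mice aged 7 days of the strain labelled C57BL/6 Barb, which the study's methods describe as C57 Black6 bred with SV129, and they carried no named genetic change. The ovaries were digested with enzymes and the oocytes grew without follicles, for 9 days in 5% O2 and for 14 days in 20% O2, with medium changed more often in 5% O2. Oxygen, culture time, medium changes and any difference in diameter therefore cannot be told apart. There were 2 RNA libraries per condition, but the deposited table holds 1 column for each, so no value has a replicate error. Methylation libraries of the study were not analysed here.

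Bfsp1 encodes filensin, a member of the intermediate filament family. With its partner phakinin, the product of Bfsp2, it builds the beaded filaments of the fibre cells of the eye lens, which help to keep these elongated cells in order and the lens clear. Stk32a encodes YANK1, a serine/threonine kinase of the AGC family, the group that also holds the kinases AKT, PKA and PKC. Little is known of its substrates, and it has been linked to the orientation of sensory hair cells in the inner ear.

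Bfsp1 (ENSMUSG00000027420.13) lies on the minus strand of chromosome 2 in GRCm38, at chr2:143826528-143863173. Its longest annotated coding transcript has 8 exons. The gene spans 36646 bases, of which annotated exons cover 2390.

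Bfsp1 has several possible starts, and the sequence at the listed one and at the most distant one is shown because they differ in the density of CpG, the site of DNA methylation, and because the distant one faces the neighbour Dstn. RefSeq holds 2 curated and 5 predicted Bfsp1 mRNAs. Both curated mRNAs begin at the listed start, whereas 2 predicted mRNAs begin 52046 bases farther upstream. The other 3 begin inside the gene, 5056, 7510 and 9008 bases after the listed start. The distant start is 100 bases from the start of Dstn, which is read in the opposite direction. The first sequence is the 250 bases upstream of the listed start on the minus strand (GRCm38, chr2:143863174-143863423, from the RefSeq promoter table). The second is the 100 bases between the distant start and Dstn, read on the plus strand toward Dstn (GRCm38, chr2:143915220-143915319). Capitals mark CpG.
Bfsp1 upstream: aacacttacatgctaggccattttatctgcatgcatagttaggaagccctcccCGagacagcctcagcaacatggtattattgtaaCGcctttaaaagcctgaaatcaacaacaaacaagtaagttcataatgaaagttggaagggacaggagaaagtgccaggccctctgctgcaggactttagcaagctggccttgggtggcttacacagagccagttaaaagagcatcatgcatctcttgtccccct
Between Bfsp1 and Dstn: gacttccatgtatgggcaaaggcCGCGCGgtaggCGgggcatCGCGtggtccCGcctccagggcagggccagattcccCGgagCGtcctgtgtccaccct

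The sequence upstream of the listed Bfsp1 start held 2 CpG and had a GC content of 46.4%. The median over 32851 RefSeq promoters was 6 CpG in the same 250 bases, and 29.0% of them had 2 or fewer. The stretch shared with Dstn held 9 CpG in 100 bases, with a GC content of 69.0%. The median in the last 100 bases before a start was 3, and 81.4% of promoters had 9 or fewer there. Around the listed Bfsp1 start, CpG lay mostly inside the gene, with 3 in the 500 bases before it and 62 in the 500 bases after it. For Stk32a these counts were 13 and 26, closer to the medians of 17 and 31 over 16544 genes. Thus the listed start of Bfsp1 stood low before and high after its first base, at percentiles of 6.26 and 89.4.

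Short motifs were searched on both strands of the printed sequences. ACGTG and GCGTG, which differ only in their first letter, are core forms of the site bound by hypoxia-inducible factors. Neither was found upstream of the listed start, where 16.6% and 28.2% of all promoters held them. GCGTG was found 1 time between Bfsp1 and Dstn, as in 15.6% of promoters over the same length, and ACGTG was not found there. TATAAA, the core of a TATA box, was found in neither sequence. TGCTGA, part of the site bound by MAF factors of the lens, was found 1 time upstream of the listed start, as in 16.1% of promoters. A match of letters is not a binding site.

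Stk32a (ENSMUSG00000039954.9) lies on the plus strand of chromosome 18 in GRCm38, at chr18:43207583-43318682. It spans 111100 bases, of which annotated exons cover 8271, and its longest coding transcript has 13 exons.

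The level of Bfsp1 was 73.1 RPM in IV 5% O2, from 9667 reads, and 0.147 RPM in IV 20% O2, from 6 reads. RPM here is the reads of a gene scaled to the depth of its column. The level of Stk32a was 43.9 RPM in IV 5% O2, from 5809 reads, and 0.220 RPM in IV 20% O2, from 9 reads. Both genes were thus well covered in IV 5% O2 and close to absent from the IV 20% O2 column.

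Counting error was small in one column and large in the other. The exact 95% Poisson interval of Bfsp1 was 71.7 to 74.6 RPM in IV 5% O2, against 0.0539 to 0.319 RPM in IV 20% O2. For Stk32a the intervals were 42.8 to 45.1 RPM and 0.101 to 0.418 RPM. The intervals of the conditions did not overlap for either gene, as the choice of these genes implies. Intervals cover counting error only, since reads after PCR without molecular identifiers are not independent molecules, and they concern these libraries, not the conditions in general. In bulk RNA, fewer cells that hold a transcript and less of it per cell cannot be told apart.

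The IV 5% O2 column was 3.23 times deeper. At the depth of the IV 20% O2 column, the IV 5% O2 levels would give 2989 reads of Bfsp1 and 1796 reads of Stk32a, where 6 and 9 were counted. The ratio of RPM was 498 for Bfsp1, with an exact 95% Clopper-Pearson interval from 229 to 1358. For Stk32a it was 199.6, with an interval from 105 to 437. These intervals overlap, and the order of the ratios was not tested.

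**Figure D1:**
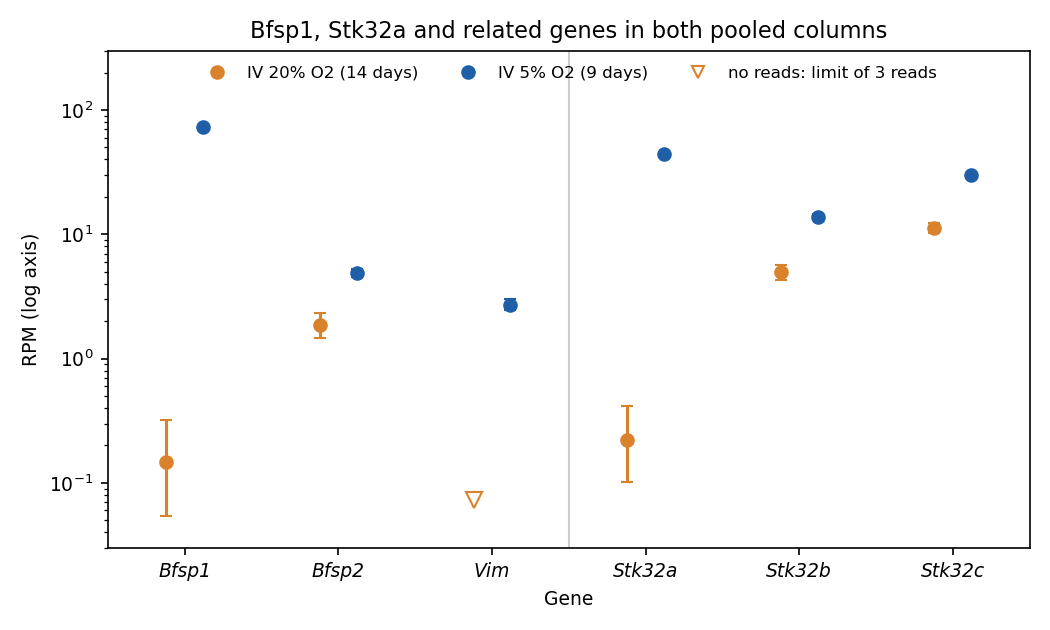
RPM on a log axis for Bfsp1, Stk32a and their relatives in IV 20% O2 (orange) and IV 5% O2 (blue). Points are the single value of each pooled column, bars are exact 95% counting intervals, and the open triangle is the limit of 3 reads for Vim, which had none. The gap between the colours is wide for Bfsp1 (0.147 to 73.1 RPM) and Stk32a (0.220 to 43.9 RPM) and narrow for Bfsp2, Stk32b and Stk32c, and levels of different genes are not corrected for length.

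On the scale of log2(RPM + 1), which understates the difference of low genes, the difference of IV 5% O2 minus IV 20% O2 was 6.01 for Bfsp1 and 5.20 for Stk32a. Over the 14704 genes whose mean reached 1 RPM, the genes tested here although no statistical test was possible, the median was 0.26, and relative to it the differences were 5.76 and 4.94. At least 2-fold higher values were common, at 18.7% of these genes, with 9.22% lower and 27.9% apart in either direction, and both members are among them by their choice. Of the genes at least 2-fold apart, 67.0% were higher, against 48.6% with quantile normalization, 56.5% with scaling to the reads on genes and 45.6% with median-ratio scaling, so the balance of all genes depended on the scaling. Differences as large as that of Stk32a were found for 8 genes, or 0.0544%. The other 6 are Gm10800, Gm10801, Gm17535, Gm10719, Gm11168 and Gm10721, which have only identifiers for names.

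The genes just outside were Fmn1, a formin that nucleates actin filaments, and Ldha, the lactate dehydrogenase subunit of glycolysis. Fmn1 measured 435 RPM in low oxygen against 14.9 RPM, a log2 difference of 4.78. Ldha was at 91.0 and 2.37 RPM, a log2 difference of 4.77. Both kept more than 1 RPM in IV 20% O2, unlike Bfsp1 and Stk32a.

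The levels of the members in IV 5% O2 were not extreme. Per length, Bfsp1 stood at percentile 90.4 of the genes and Stk32a at percentile 58.1. In IV 20% O2 they stood at percentiles 6.34 and 4.24. Compared per length of annotated exons, Bfsp1 was at 30.6 and Stk32a at 5.31 RPM per kilobase (RPKM) in IV 5% O2, and at 0.0614 and 0.0266 in IV 20% O2. Bfsp1 was thus 5.76 times Stk32a per length in IV 5% O2, against 1.66 times by RPM. By the longest coding transcript alone, Stk32a was at 8.65 and Bfsp1 at 30.8 in IV 5% O2. The study's methods name an oocyte-specific transcript annotation for counting. Its exons are not given in the sources used here, so these lengths are those of GENCODE.

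Few genes that were close to absent in IV 20% O2 had as many reads in IV 5% O2, without a correction for length. Of 1110 genes with at most 9 reads in IV 20% O2, 964 reached 1 RPM in IV 5% O2, 23 reached 5 RPM, or 2.07%, and 8 reached 10 RPM. The limit of 9 reads is that of Stk32a itself, so the place of the members in this set follows from their choice. In the opposite direction, 580 genes had at most 0.220 RPM in IV 5% O2. Of these, 383 reached 1 RPM in IV 20% O2, 62 reached 5 RPM and 32 reached 10 RPM. The RNA-seq table does not hold every annotated gene, and how its rows were chosen is not given in the sources used here. If rows were kept for their reads in any column, the counts in both directions follow in part from that choice.

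**Figure D2:**
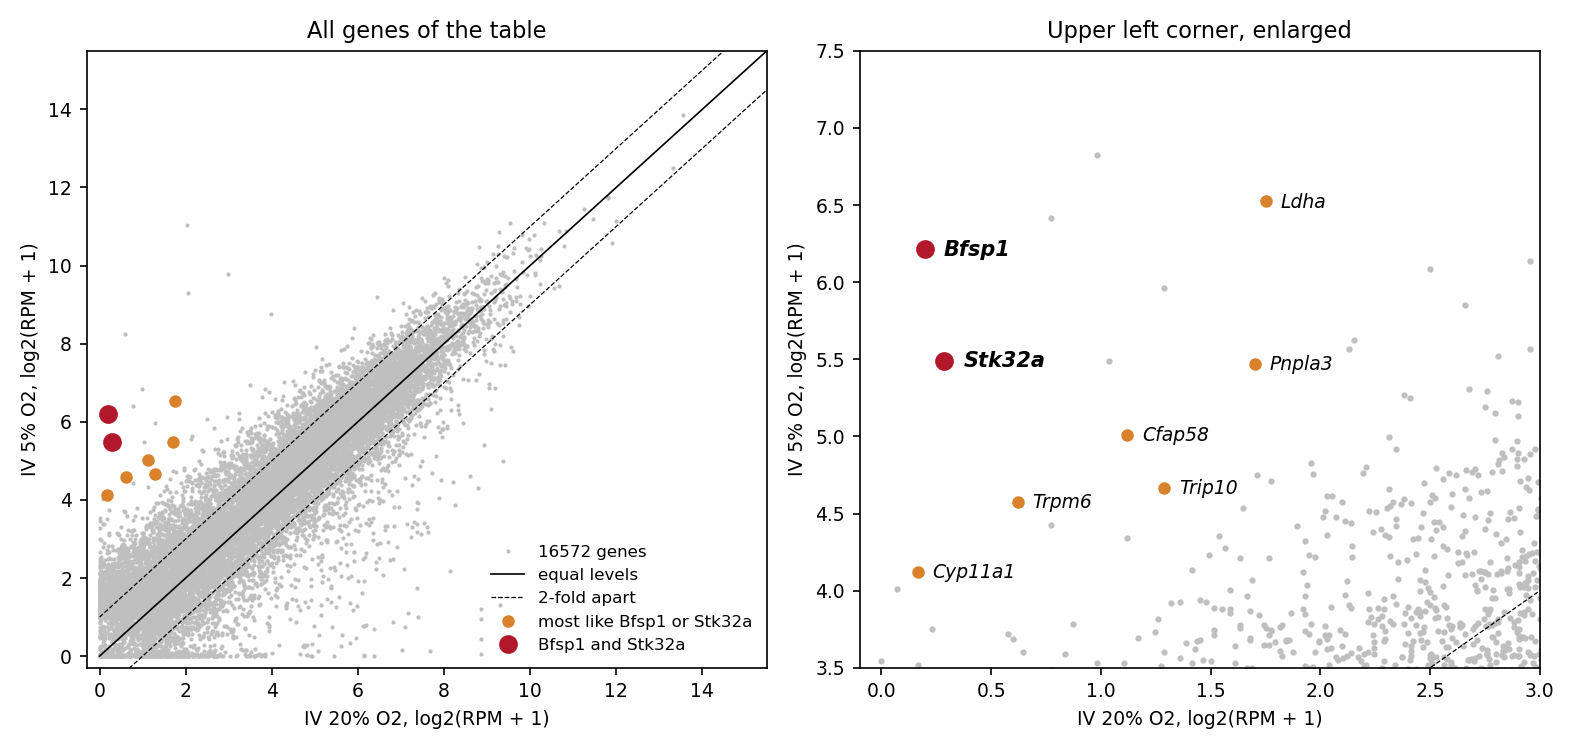
Level of each of 16572 genes in IV 20% O2 against IV 5% O2, both as log2(RPM + 1), with all genes on the left and the upper left corner enlarged on the right. Bfsp1 and Stk32a (red) lie near 0 on the horizontal axis at a height of about 73.1 and 43.9 RPM, apart from the cloud along the line of equal levels, and the genes most like them are in orange.

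The genes most like the members were sought by distance in the plane of log2(RPM + 1) of both columns, which is likeness over 2 values only. Each member was the named gene nearest to the other, at a distance of 0.727. For Bfsp1 the next were Cfap58, Ldha, Pnpla3 and Trpm6, at distances of 1.52 to 1.69. For Stk32a they were Cfap58, Trpm6, Trip10 and Cyp11a1, at distances of 0.962 to 1.37. Cfap58, a protein of cilia and flagella, measured 31.2 RPM in IV 5% O2 against 1.17 RPM. Trpm6, a magnesium channel, was at 22.8 and 0.538 RPM. Cyp11a1, the enzyme of the first step of steroid synthesis, was at 16.4 and 0.122 RPM, from 2171 and 5 reads.

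The relatives of the members are given beside them as values, since the members were chosen for their ratios and a comparison with them is no test. Bfsp2, the filament partner of filensin, measured 4.90 RPM in IV 5% O2 against 1.86 RPM in IV 20% O2. Its ratio was 2.64, with a counting interval from 2.08 to 3.39, beside 498 for Bfsp1. Vim, the vimentin of mesenchymal cells, was at 2.72 RPM from 360 reads in IV 5% O2 and had 0 reads in IV 20% O2, which at 3 reads allows up to 0.0734 RPM, so that it was at least 37.1-fold higher in IV 5% O2 against this floor. The lower bound of its exact interval was a ratio of 30.02. In IV 5% O2, Bfsp1 was at 30.6 RPKM where Bfsp2 was at 2.89, so that the filament partners were unequal.

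Stk32b and Stk32c, the other YANK kinases, were present in both columns. Stk32b measured 13.9 RPM in IV 5% O2 against 4.94 RPM, with a ratio of 2.81 and an interval from 2.43 to 3.26. Stk32c was at 30.1 and 11.3 RPM, with a ratio of 2.67 and an interval from 2.43 to 2.95. The ratio of Stk32a was 199.6. In IV 20% O2, reads of the family were thus 202 for Stk32b, 460 for Stk32c and 9 for Stk32a. Per length, Stk32c was the highest of the family in IV 5% O2, at 13.1 RPKM, beside 5.31 for Stk32a and 4.01 for Stk32b.

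No shared sequence was found for Bfsp1. None of the 50-base or 100-base windows along its exons occurred a second time in the genome. For Stk32a, 0.655% of 50-base windows and 0% of 100-base windows were repeated. The processed pseudogene Rps13-ps6 lies within Bfsp1 on the opposite strand. The libraries were strand-specific, but whether the counting used strand is not given in the sources used here.

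The rows beside each member were examined next, 5 on each side by chromosome and start. Around Bfsp1, 9 of 10 rows were tested. On log2(RPM + 1), none was at least 2-fold higher in IV 5% O2 and 1 was at least 2-fold lower, against 18.7% and 9.22% of all genes. Without the pseudocount, Gm5535 had a ratio of 2.09, from 16.8 and 8.07 RPM. Their median log2 difference was 0.25, beside 0.26 over all genes, with a range of -1.55 for Snx5, a sorting nexin of endosomes, to 0.98 for Gm5535.

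Dstn, whose start faces the distant start of Bfsp1, encodes destrin, which severs actin filaments. It measured 90.4 RPM in IV 5% O2 against 53.3 RPM, a log2 difference of 0.75. Of its 100-base windows, 22.1% were repeated in the genome, so its reads are less certain. Dstn was thus abundant in the column where Bfsp1 was close to absent. The next row, Rrbp1, a ribosome-binding protein of the endoplasmic reticulum, differed by 0.37. On the other side Snrpb2, a spliceosome protein 753.7 kb away, differed by 0.33 and the kinesin Kif16b by 0.25. Macrod2 differed by -0.11, Mgme1 by -0.68 and Ndufaf5 by -0.89, and Flrt3 was under the mean of 1 RPM. Pcsk2, annotated 10.2 kb beyond the end of Bfsp1 on the opposite strand, had no row in the RNA-seq table under this name or position. It is therefore not among the rows counted.

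Around Stk32a, all 10 rows were tested. On log2(RPM + 1), none was at least 2-fold higher in IV 5% O2 and 2 were at least 2-fold lower, against 18.7% and 9.22% of all genes. Their median log2 difference was 0.45, beside 0.26 over all genes, with a range of -3.21 for Eif3j2 to 0.99 for 4930588A03Rik. Eif3j2 encodes a translation initiation factor subunit, and 59.6% of its 100-base windows were repeated, so its value is uncertain. The other lower row was Gm50214, at -1.28.

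Dpysl3, a collapsin response mediator protein of growing axons, ends 2.3 kb from the end of Stk32a on the opposite strand. It measured 285 RPM in IV 5% O2 against 169 RPM, a log2 difference of 0.75. 4930588A03Rik, 36.3 kb upstream of Stk32a, was at 2.01 RPM from 266 reads and 0.514 RPM from 21 reads, a ratio of 3.92 without the pseudocount, with an interval from 2.51 to 6.43. Ppp2r2b, a regulatory subunit of protein phosphatase 2A, differed by 0.67, and Rbm27, Myot, Dcp2 and Mcc by 0.20 to 0.48.

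**Figure D3:**
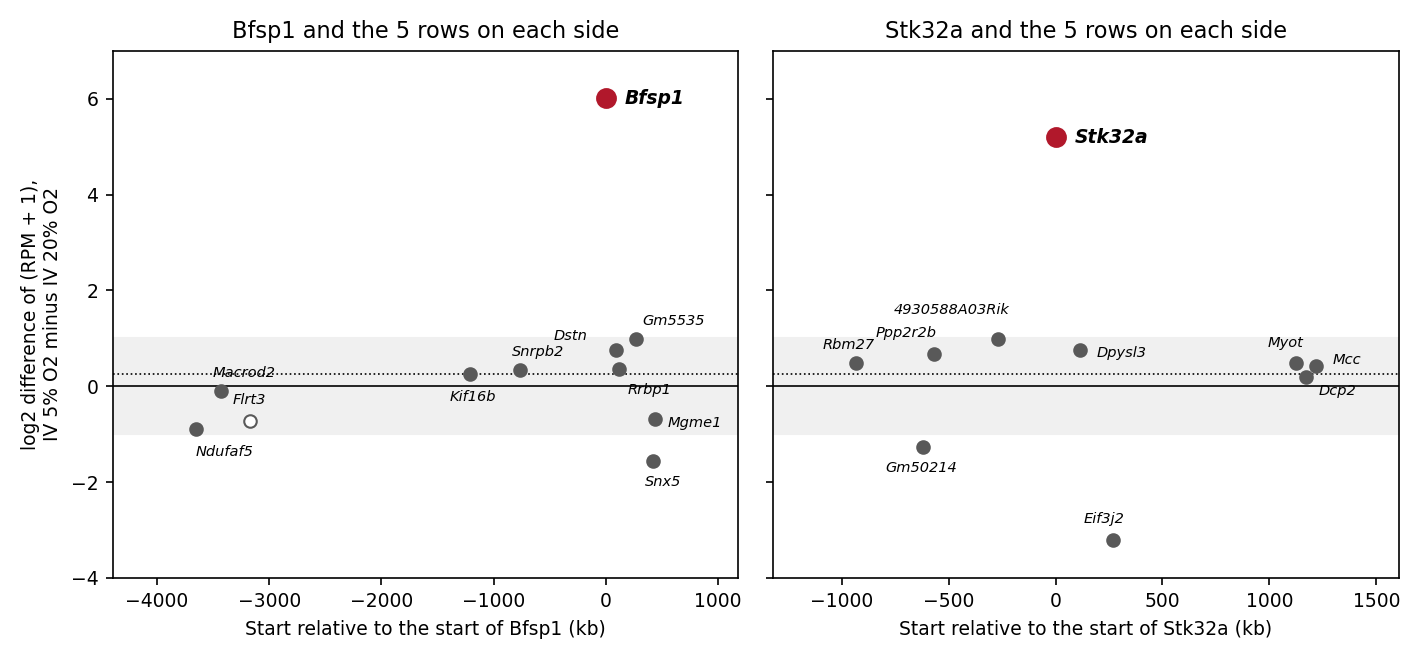
Log2 difference of RPM + 1, IV 5% O2 minus IV 20% O2, for Bfsp1 (left) and Stk32a (right) in red and for the 5 rows on each side in grey (1 row beside Stk32a is not shown), against the distance between starts in kb. The open point (Flrt3) had a mean under 1 RPM, the dotted line is the median of all genes (0.26) and the shaded band is less than 2-fold, and the neighbours shown lie at or below 0.99 where the members reach 6.01 and 5.20.

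With 10 rows on each side, 3 of 19 rows were at least 2-fold higher around Bfsp1 and 3 of 19 around Stk32a, and the largest differences were 2.19 and 1.60. At least 2-fold lower were 1 of 19 around Bfsp1 and 2 of 19 around Stk32a. Within 1 Mb of the start, 2 of 15 rows were at least 2-fold higher around Bfsp1 and none of 7 around Stk32a, and 2 of 15 and 2 of 7 were lower. These shares can be read beside 18.7% of all genes.

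Gene lists that touch the known roles of the members were described by counts and medians. Of 24 intermediate filament genes other than Bfsp1, 15 were in the table and 14 were tested. Of these, 9 were at least 2-fold higher in IV 5% O2 and 1 was lower, with a median log2 difference of 1.20, against 18.7%, 9.22% and 0.26 for all genes. Some of the 9, Vim among them, were so low in IV 20% O2 that passing the filter by itself made them 2-fold higher. Vim is also on the theca and stroma list and Bfsp2 on the lens fibre list. Krt8, a keratin of simple epithelia, was at 121 and 10.2 RPM, a log2 difference of 3.44. Lmna, of the nuclear lamina, was at 109 and 43.8 RPM, and Nes, the nestin of progenitor cells, at 51.3 and 21.1 RPM.

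The lens fibre list holds genes of the cell type in which Bfsp1 is best known. Of its 34 genes, 11 were in the table and 9 were tested, of which 3 were at least 2-fold higher and none lower, with a median of 0.38, where all genes had 18.7%, 9.22% and 0.26. The 3 were Maf, a transcription factor of lens fibres, Mip, a water channel of their membrane, and Bfsp2, with differences of 1.38, 1.08 and 1.05. Mip was so low in IV 20% O2 that passing the filter by itself made it at least 2-fold higher. Tdrd7, Lgsn and Pax6 had the highest means and differed by -0.13, 0.56 and -0.08. Of 7 plakin genes, which link filaments to other structures, 6 were tested, 1 was higher, near the 18.7% of all genes, and the median was 0.20. Macf1, Dst and Plec, the most abundant, differed by -0.66, -0.23 and -0.05.

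For Stk32a, 47 of 56 AGC kinase genes were tested. Of these, 14 were at least 2-fold higher and none lower, with a median of 0.56, against 18.7%, 9.22% and 0.26 for all genes. Cdc42bpb, which acts on myosin, was at 491 and 217 RPM, a log2 difference of 1.17, while Mastl and Rock1, of cell division and contraction, differed by 0.48 and 0.56. Of 18 planar polarity genes, the system that orients hair cells, 17 were tested, 4 were higher and 3 lower, and the median was 0.24, close to the 0.26 of all genes, of which 18.7% were higher and 9.22% lower. Gnai3, Celsr1 and Prickle1 differed by 0.15, -0.36 and -0.08.

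The hypoxia response list, which holds Ldha, had 19 of 20 genes tested. Of these, 7 were at least 2-fold higher and none lower, with a median of 0.53, against 18.7%, 9.22% and 0.26 for all genes. Its most abundant members, Bnip3l, Ddit4 and Egln1, differed by 0.23, 0.91 and -0.04. Ldha was the only member of the list near the difference of Stk32a.

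**Figure D4:**
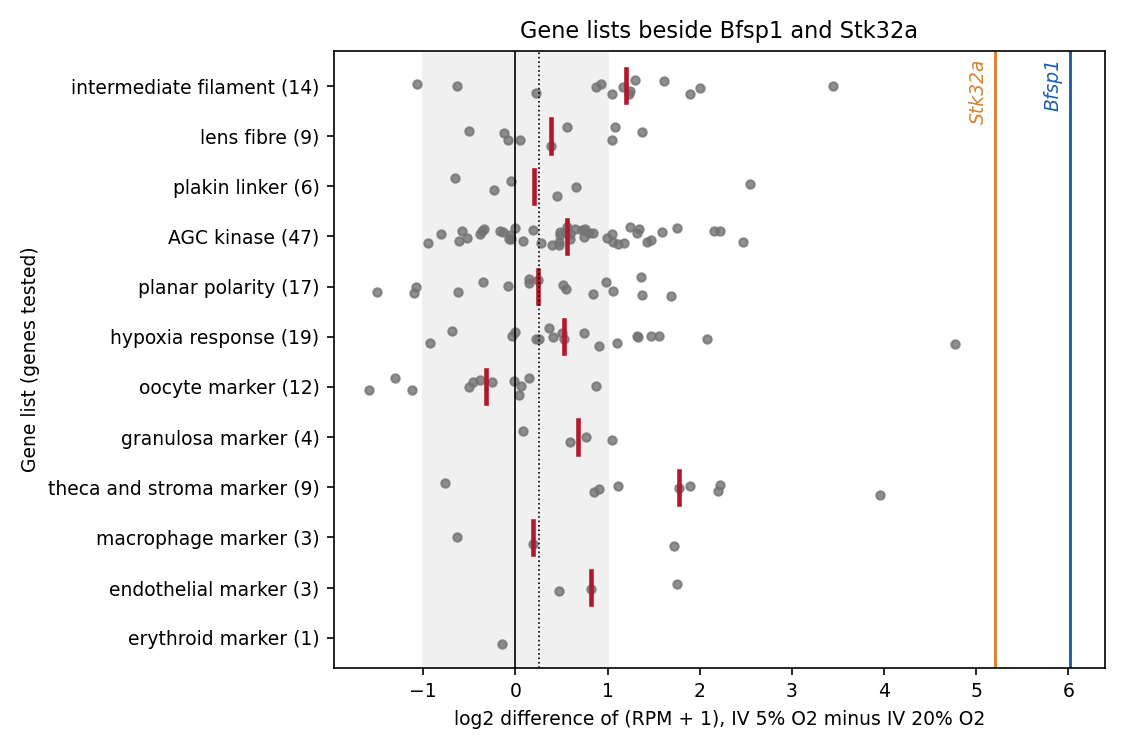
Log2 difference of RPM + 1, IV 5% O2 minus IV 20% O2, for the tested genes of 12 lists (grey points, vertical scatter has no meaning), with each list's median in red where at least 3 genes were tested. Vertical lines mark Stk32a (5.20) and Bfsp1 (6.01), to the right of all points as their choice implies, the dotted line is the median of all genes (0.26) and the shaded band is less than 2-fold.

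Markers of oocytes and of other ovarian cells were read beside the members. The 12 oocyte markers summed to 9852 RPM in IV 5% O2 against 13690 RPM, none was at 3 reads or fewer, 3 were at least 2-fold lower and none higher, with a median of -0.32, where all genes had 9.22%, 18.7% and 0.26. Zp2, a coat protein of the egg, was at 1537 and 3807 RPM, while Gdf9 and Nlrp5 differed by -0.26 and 0.06. Both columns thus held the labelled cell type.

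Of 19 theca and stroma markers, 12 were in the table and summed to 56.0 RPM in IV 5% O2 against 19.2 RPM. Of the 9 tested, 6 were at least 2-fold higher and none lower, with a median of 1.78, where all genes had 18.7%, 9.22% and 0.26. Relative to all genes this median was 1.52, but 3.08 with a pseudocount of 0.1 RPM, 0.39 with 5 RPM and 0.73 without the filter on low values. In IV 20% O2, 4 of the 12 were at 3 reads or fewer, and Vim, Dcn and Col1a2 were at 0 reads. Vim, Dcn and Cyp11a1 were so low there that passing the filter by itself made them at least 2-fold higher. The count of 6 and the median, which is the value of Dcn, thus follow in part from the filter. Cyp11a1, also among the genes most like Stk32a, is on this list, as are Ptch1 and Fn1, which differed by -0.76 and 0.85. The part of these cells in the values of Bfsp1 and Stk32a was not tested.

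The medians of the other marker lists were 0.68 for granulosa, 0.20 for macrophage and 0.82 for endothelial markers. Granulosa markers summed to 42.9 RPM in IV 5% O2 against 29.8 RPM over 7 of 14 genes, with 1 of 4 tested genes at least 2-fold higher, where all genes had 18.7%. Nr5a2, Kitl and Cyp19a1 led it, with differences of 0.09, 0.76 and 0.59, and Inha was at 0 reads in IV 20% O2 and Fshr in IV 5% O2. Macrophage markers summed to 24.9 and 22.6 RPM over 4 of 8 genes, with Csf1r, Cd68 and C1qb at -0.64, 0.20 and 1.72, and Lyz2 was at 0 reads in IV 20% O2. Endothelial markers summed to 65.0 and 37.9 RPM over 4 of 6 genes, with Pecam1, Tek and Tie1 at 0.48, 1.75 and 0.82, and Kdr was at 0 reads in IV 20% O2. The only erythroid marker in the table, Alas2, was at 1.32 and 1.57 RPM.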

How the data were processed

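RNA-seq reads of class IV oocytes grown in 5% and in 20% O2 (2 libraries each) were aligned by the authors to mm10 with TopHat (TopHat2 2.0.9 in the submitters' processing notes, which also name Trim Galore 0.2.8 and 0.3.5), merged across exons in SeqMonk and deposited as log2 values, 1 pooled column per condition. How the libraries were pooled is not given in the sources used here, and 1 value column that matches no mapped sample was not used. The log2 values are named RPKM, and the study's methods state a correction for feature length, but 99.9% and 100.0% of them are whole multiples of 1 read, within 0.05 read, so they were read as RPM without a length correction. A gene without reads is listed at 0.9 read and was set to 0. The columns imply 132185259 reads for IV 5% O2 and 40875365 for IV 20% O2, and the floor was 3 reads. For the 18 names with several rows, the row with the highest mean was used.

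Differences were taken on log2(RPM + 1), and a gene counts as tested where its mean reached 1 RPM. A gene near 0 RPM in 1 column passed only through the other, which by itself put it at least 2-fold apart. This holds for some higher genes of the intermediate filament, lens fibre, AGC kinase, planar polarity and theca and stroma lists. With 1 value per condition there is no test. Intervals are exact at 95%. Of the 16572 genes, 16553 were matched to GENCODE (GRCm38), 16396 by exact coordinates. A window, taken every 10 bases of exon, was repeated if the genome held it 2 times or more. Reads were recovered and fold changes found on simulated data. The members and lists were chosen with earlier results of these data known. Named genes are the members, the 5 rows on each side, genes overlapping a member, the paralogs Bfsp2, Vim, Stk32b and Stk32c, the 5 genes most like each member, the 3 most abundant genes of each list and the 5 largest rises, identifier-only names skipped in the likeness and the rises. A row beside Stk32a enters the counts and medians but is not reported here by itself. Other identifier-only names, the genes at 0 reads among markers, Maf, Mip, Spp1 and Pcsk2 were named after their values or position were seen. Alternatives were quantile normalization, a filter at a mean of 5 RPM or none, median-ratio scaling, pseudocounts of 0.1 and 5 RPM, scaling to the reads on genes, division by exonic length, and 10 rows or 1 Mb on each side. The ratio without a pseudocount was added after seeing the data. Scripts ran in Python 3.11.15 with scipy 1.17.1, matplotlib 3.10.9, numba 0.67.0, pandas 2.3.3 and numpy 2.4.6.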

Additional observations from a re-analysis of the deposited data

How the results depend on the processing

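Bfsp1 and Stk32a stayed far higher in IV 5% O2 under every alternative run, but the size of the log2 difference rested on the pseudocount, since both were close to absent in IV 20% O2. It was 8.21 and 7.10 with a pseudocount of 0.1 RPM, 3.92 and 3.23 with 5 RPM, and 8.96 and 7.64 without one. Quantile normalization gave 5.70 and 4.86, division by exonic length, where the pseudocount weighs more for a long gene, gave 4.90 and 2.62, and scaling to the reads on genes gave 6.21 for Bfsp1. Bfsp1 and Stk32a did not keep ranks 1 and 2 among named genes throughout. With a pseudocount of 5 RPM, Fmn1 (4.47) passed Bfsp1, and Ldha (3.70) passed Stk32a, which ranked 4. Per length Stk32a ranked 20, and without a pseudocount Spp1 (ratio 206, with its 2 reads in IV 20% O2 raised to 3) passed it.

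The count of genes at least 2-fold higher was 2753 and became 1202 with a pseudocount of 5 RPM, 1764 with quantile normalization, 1691 with the filter at 5 RPM, 1609 per length and 1700 with median-ratio scaling. The count of lower genes was 1356 and became 706 with a pseudocount of 5 RPM and 899 per length, while it grew to 1866 with quantile normalization, 1871 with scaling to the reads on genes and 2031 with median-ratio scaling. The median log2 difference of all tested genes moved from 0.26 to 0.06 with quantile normalization, 0.10 with scaling to the reads on genes and -0.04 with median-ratio scaling.

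Neighbours of Bfsp1 at least 2-fold higher became 1 with a pseudocount of 0.1 RPM, 3 with 10 rows on each side and 2 within 1 Mb, and those lower became 2 with a pseudocount of 0.1 RPM, median-ratio scaling, quantile normalization, scaling to the reads on genes and within 1 Mb. Neighbours of Stk32a at least 2-fold higher became 1 with a pseudocount of 0.1 RPM and with scaling to the reads on genes, and 3 with 10 rows, and those lower became 1 with a pseudocount of 5 RPM and with the filter at 5 RPM. Relative to all genes, the median of theca and stroma markers moved from 1.52 to 3.08 and 0.39 with pseudocounts of 0.1 and 5 RPM and to 0.73 without a filter, that of intermediate filament genes from 0.94 to 0.52 with 5 RPM, and that of granulosa markers from 0.42 to 0.22 with 5 RPM and 0.21 per length. The cause of these moves was not tested. In all, 140 recomputed values stayed within their spread or, for counts, within a margin set for counts, and 37 did not. For medians the spread is that between genes, not the error of the median. Filters on low values could not change the difference of Bfsp1 or Stk32a, and the values without a pseudocount were counted as moved without a comparison. The tally is therefore no measure of robustness.

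No paired analysis was possible because each condition has 1 pooled column. For the same reason no replicate was left out. Depth limits the IV 20% O2 values of Bfsp1 and Stk32a, which rest on 6 and 9 reads.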
